A study of Mus musculus with 2 samples.

Results

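The collagen chain genes of the mouse lung were taken as every gene whose symbol has the form Col, a type number, the letter a and a chain number. Of 31053 genes listed in the count tables, 44 were members, and they covered 27 collagen types. All 44 had at least 1 UMI, a unique molecular identifier that counts 1 captured transcript, and 37 had at least 20 UMIs over both libraries in a cell class, the minimum used here for a comparison. The data are 2 droplet single-cell RNA libraries of C57BL/6 lung, both labelled with acute lung injury: 1 of genotype p47phox-KI (KI) and 1 wild type (WT). The protein p47phox is the cytosolic organiser of the phagocyte NADPH oxidase. Lungs were perfused and digested with collagenase, the suspension was passed through a strainer and freed of erythrocytes, and cells were sorted after staining for viability and for CD45.2, a leukocyte antigen. The labels do not state the gate, the agent of injury, how the allele was made, the sex, or how many animals stood behind each library. Each group holds 1 library, so no replicate spread can be given and every interval below covers counting error only. Genotype, animal and library cannot be told apart.

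Collagens are extracellular proteins built from chains that wind around each other into a helix. Fibrillar types (I, II, III, V, XI and relatives) form the tensile fibres of the interstitium, and network types (IV and VIII) form sheets, with type IV as the scaffold of every basement membrane. FACIT collagens decorate the surface of fibrils, type VI makes beaded microfilaments near cells, multiplexins (XV and XVIII) sit beside basement membranes, and transmembrane collagens stay anchored in the plasma membrane. In the lung, fibroblasts are known as the main source of interstitial fibres, while the thin barrier between alveolus and capillary rests on type IV sheets made by epithelium, endothelium and pericytes.

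The type IV genes lie in head-to-head pairs. On GRCm38, the assembly also called mm10, Col4a1 runs at chr8:11198423-11312826 on the minus strand and Col4a2 at chr8:11312805-11449287 on the plus strand. Their annotated RefSeq start sites stand 21 bases apart on opposite strands, and their promoter windows, which take 250 bases before to 50 after the start, overlap by 78 bases. These windows are shown because both genes had message in every compared class, and those of Col1a2 and Col3a1 because both were among the most abundant fibrillar members in fibroblast-like cells. Sequences are from RefSeq on GRCm38.p6, read 5′ to 3′ on the strand of the gene, with Col4a1 at chr8:11312777-11313076 (minus), Col4a2 at chr8:11312555-11312854 (plus), Col1a2 at chr6:4505368-4505667 (plus) and Col3a1 at chr1:45311288-45311587 (plus). Capitals mark matches, on either strand, to CCAAT (named the CCAAT box), to TATAAA (the TATA box) or to GGGCGG (the GC box).
Col4a1: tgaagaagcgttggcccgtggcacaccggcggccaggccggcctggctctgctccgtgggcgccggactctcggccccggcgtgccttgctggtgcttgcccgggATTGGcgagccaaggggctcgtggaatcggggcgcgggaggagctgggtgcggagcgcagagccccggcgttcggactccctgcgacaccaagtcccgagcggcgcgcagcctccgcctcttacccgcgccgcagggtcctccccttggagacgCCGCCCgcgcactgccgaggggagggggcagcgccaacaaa
Col4a2: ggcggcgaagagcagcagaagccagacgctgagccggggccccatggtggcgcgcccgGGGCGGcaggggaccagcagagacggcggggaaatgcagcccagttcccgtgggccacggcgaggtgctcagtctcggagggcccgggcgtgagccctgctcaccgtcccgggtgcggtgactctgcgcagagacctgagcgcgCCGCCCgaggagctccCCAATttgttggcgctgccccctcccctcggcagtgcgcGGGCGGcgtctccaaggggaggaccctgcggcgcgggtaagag
Col1a2: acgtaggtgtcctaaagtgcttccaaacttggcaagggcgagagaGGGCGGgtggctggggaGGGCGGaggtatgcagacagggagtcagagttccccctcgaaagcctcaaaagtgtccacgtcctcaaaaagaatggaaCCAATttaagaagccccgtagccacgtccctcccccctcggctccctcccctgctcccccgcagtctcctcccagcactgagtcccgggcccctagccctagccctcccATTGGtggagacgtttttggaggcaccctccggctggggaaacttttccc
Col3a1: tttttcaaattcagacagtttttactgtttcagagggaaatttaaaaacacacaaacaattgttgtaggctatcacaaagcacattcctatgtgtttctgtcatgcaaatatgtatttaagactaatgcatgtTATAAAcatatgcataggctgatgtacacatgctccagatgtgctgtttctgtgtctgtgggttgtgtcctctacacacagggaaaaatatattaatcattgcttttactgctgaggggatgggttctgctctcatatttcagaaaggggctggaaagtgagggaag
The Col4a1 and Col4a2 windows both held letters of the CCAAT box and the GC box and none of the TATA box. The GC match of Col4a1 and the last GC match of Col4a2 are the same bases, read on opposite strands within the overlap. The Col1a2 window also held the CCAAT and GC boxes, and the Col3a1 window held the TATA box alone. Among 38 windows found for 35 of the 44 members, 13 held the CCAAT box, 5 the TATA box and 23 the GC box. Over all 32851 promoters of the same length, 37.4% held the CCAAT box, 13.6% the TATA box and 35.7% the GC box. A match is a run of letters in this window and not a shown site of binding. The pair Col4a5 and Col4a6 on the X chromosome also faces away from each other, with start sites 1343 bases apart. Col4a3 (chr1:82586921-82722059, plus strand) and Col4a4 (chr1:82448423-82586849, minus strand) make the remaining pair.

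Both libraries were of like depth, with 43445797 UMIs in KI and 43376713 in WT. After the filters and the removal of likely doublets, 6639 KI and 7712 WT cells remained, with a median of 3776 UMIs per KI cell and 3299.5 per WT cell. The libraries shared 30 barcode sequences, and each such barcode was read as a separate cell in each library. Clusters were named from fixed markers, with collagen genes left out of the clustering. Comparisons were made in the 6 classes of 100 or more cells per library: fibroblast-like (1176 KI and 1399 WT cells), smooth muscle-like (133 and 113), pericyte-like (404 and 377), endothelial-like (3506 and 4319), alveolar type 1-like (245 and 425) and alveolar type 2-like (471 and 432). Each had UMIs of all of its own 8 to 12 markers in both libraries. Levels below are UMIs of the gene over all UMIs of the class, on the usual CPM scale. A UMI here is a tag near the 3′ end, so CPM is not scaled by length, and it is a share of each cell's RNA, not RNA per cell.

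Collagen message made up 0.329% of all UMIs in KI and 0.282% in WT. Endothelial-like cells, by far the most numerous class, held 36.7% of collagen UMIs in KI and 38.4% in WT, and fibroblast-like cells held 35.6% and 33.8%. Per UMI the order was different. In fibroblast-like cells 0.940% of UMIs were collagen in KI and 0.766% in WT, a log2 ratio of KI over WT of 0.30 (95% interval 0.27 to 0.32). Pericyte-like cells stood at 0.816% in KI and 0.811% in WT, with a ratio of 0.01 (-0.04 to 0.05), so their share was alike within counting error. Smooth muscle-like cells had 0.512% in KI and 0.475% in WT (0.11, 0.03 to 0.18), and alveolar type 1-like cells 0.497% and 0.449% (0.15, 0.09 to 0.20). The shares in endothelial-like cells were 0.251% in KI and 0.212% in WT (0.24, 0.22 to 0.26). Alveolar type 2-like cells, whose RNA is dominated by surfactant transcripts, came lowest with 0.0655% in KI and 0.0561% in WT (0.22, 0.16 to 0.29).

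Which kinds of chain made up that message differed far more between classes than between libraries. Fibrillar chains gave 56.4% of the collagen UMIs of fibroblast-like cells in KI and 48.2% in WT, and 49.0% and 39.9% in smooth muscle-like cells. In pericyte-like cells the network chains led, with 60.4% in KI and 61.3% in WT, beside 29.6% and 27.2% fibrillar. Type IV alone gave 93.8% in KI and 93.9% in WT of the collagen UMIs of endothelial-like cells, and 95.9% and 96.8% of those of alveolar type 1-like cells. In alveolar type 2-like cells the beaded filament type VI gave 31.0% in KI and 26.6% in WT, above its share in any other compared class, beside 55.8% and 58.9% for network chains. A fibroblast-like cell had a UMI of a median of 9 members in KI and 8 in WT, against 2 in both libraries for an endothelial-like cell. At an equal depth of 1500 UMIs per cell these medians were 6 in both libraries and 2 in both.

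**Figure D1:**
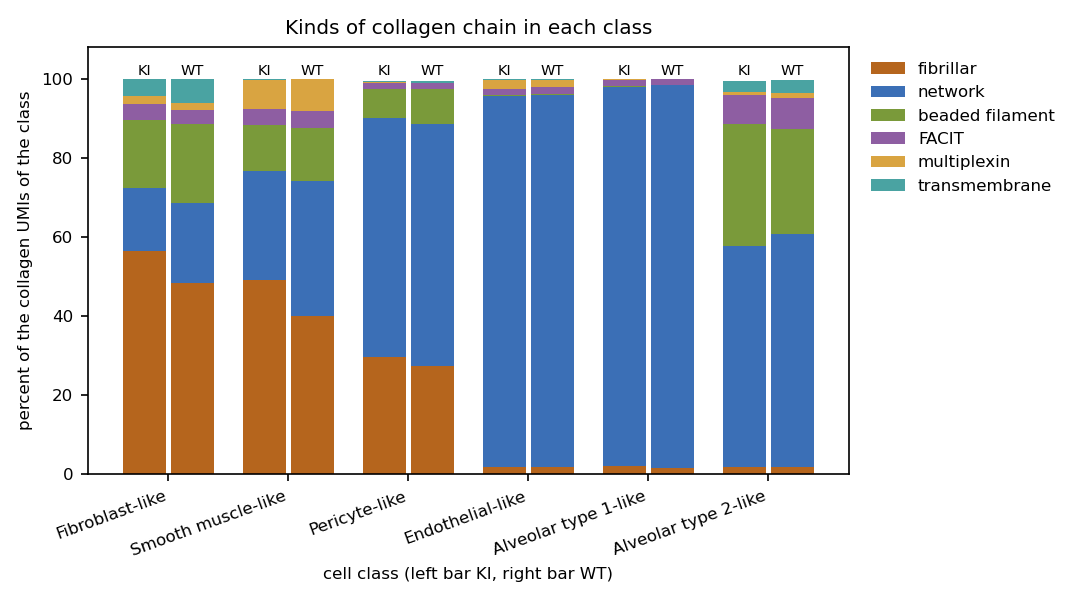
Share of collagen UMIs (percent, y axis) given by each kind of chain in the 6 compared classes, with the KI bar on the left and the WT bar on the right of each pair. Fibrillar chains give 56.4% in KI and 48.2% in WT of fibroblast-like collagen message, while network chains fill nearly all of the endothelial-like and alveolar type 1-like bars.

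**Figure D2:**
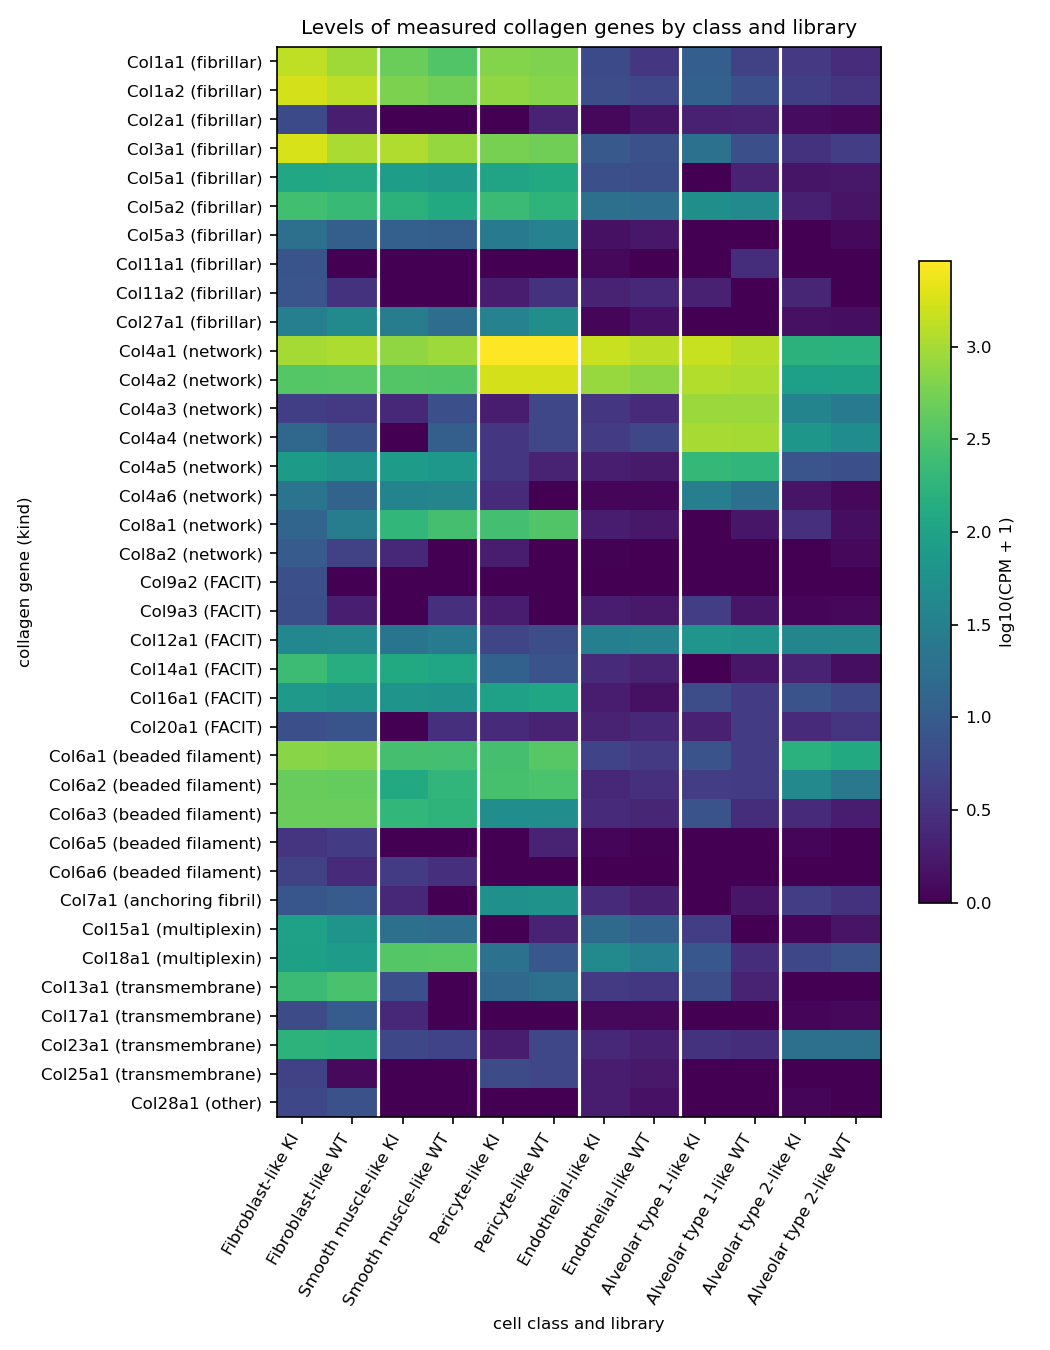
Levels of the 37 measured collagen genes as log10(CPM + 1) (colour) in each class (x axis, KI column left of WT), with genes grouped by kind down the page. Col4a1 and Col4a2 are bright in all classes, Col4a3 and Col4a4 mainly in alveolar type 1-like cells, and the type I and III genes in fibroblast-like, smooth muscle-like and pericyte-like cells.

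Counted gene by gene, fibroblast-like cells had the most members measured and the most past a log2 ratio of 0.5 toward KI. Of 36 members measured there, 14 were higher in KI by more than 0.5 on the log2 scale and 3 were lower, while 17.5% of all 11782 genes measured in that class passed the same limit upward and 8.15% downward. With the 2 members at 0 UMIs in WT set to a floor of 3 WT counts, the members' median log2 ratio was 0.25, beside 0.08 over all measured genes. The members' medians in endothelial-like (0.30) and alveolar type 2-like cells (0.32) were higher still, beside 0.06 and 0.08 over all measured genes. The alveolar type 2-like median was 0.11 with doublets kept and 0.02 over 8 members when cells were thinned to equal depth. It was above 0.32 under no setting. In each of these classes, most measured members were at a level that free RNA from other cells can reach in at least 1 library. In the count, fibroblast-like members passed upward more often than the background share. Part of that count rested on 1 small cluster of 31 KI cells and 1 WT cell, described further on: without it, 8 of 31 members were higher, 3 were lower and the median was 0.14. The 8 were Col1a1, Col3a1, Col4a4, Col4a6, Col5a3, Col6a6, Col14a1 and Col15a1, of which Col4a4 (1.02 in the whole class) stood at a level that free RNA from other cells can reach.

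In endothelial-like cells 7 of 27 members were higher and 1 was lower, where the background was 12.4% higher and 6.39% lower. All but 2 of the 7, Col18a1 and Col28a1, lay over 20 times under the level of some other class in their library, which free RNA in the droplets can reach, so those 5 (Col1a1, Col4a3, Col7a1, Col16a1 and Col23a1) and the 1 lower (Col4a4) are named only as such. Col28a1 rested on 13 UMIs in KI and 8 in WT, with an interval from -0.60 to 2.25. The endothelial count depended on the cells used: with a stricter cell filter (at least 500 genes and at most 5% mitochondrial UMIs) 16 of 25 members were higher, with a median of 0.62, beside 1961 of 12882 genes and a median of 0.08. Smooth muscle-like cells had 2 of 19 higher and 1 lower (background 21.7% and 10.9%), and pericyte-like cells 1 of 17 higher and 1 lower (background 13.7% and 11%). Both counts lay near or under the background shares. Alveolar type 1-like cells had 3 of 10 higher and 0 lower (background 17.3% and 11%), of which Col1a2 and Col3a1 were at a level free RNA can reach. In alveolar type 2-like cells 4 of 16 members were higher and 2 were lower (background 14.8% and 5.76%). Among those, Col1a1 and the lower Col3a1 were at a free-RNA level in both libraries, and Col4a4 and Col7a1 in WT only. The higher Col6a2 and the lower Col20a1 were at such a level in neither library.

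The chains of the interstitial fibres, types I and III, were the most abundant fibrillar members and were higher in KI fibroblast-like cells. Col3a1, the only chain of type III collagen, stood at 1767 CPM in KI and 1054 CPM in WT, a log2 ratio of 0.75 (0.69 to 0.80). Col1a1, the major chain of type I collagen (chr11:94936224-94953042, plus strand), had 1343 CPM in KI and 926 CPM in WT (0.54, 0.48 to 0.60). Its partner Col1a2 had 1743 CPM in KI and 1312 CPM in WT (0.41, 0.36 to 0.46). These differences were many times the counting error and, for Col1a1 and Col3a1, past the limit that 17.5% of genes in the class passed. They could also be seen in how many cells showed the message. All 3 genes had a UMI in the same cell in 57.4% of KI cells (median depth 2765 UMIs) and 44.5% of WT cells (2349 UMIs) of this class, and in 46.2% and 35.1% when each cell was thinned to 1500 UMIs. In endothelial-like cells that share was 0.228% in KI (4111.5 UMIs) and 0.0232% in WT (3564 UMIs).

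In smooth muscle-like cells type I, as the sum of its genes, and type III were close, with 1085 CPM and 1126 CPM in KI and 848 CPM and 822 CPM in WT. Col3a1 had 1126 CPM in KI and 822 CPM in WT (0.45, 0.28 to 0.63), which was 2.36 UMIs per Col1a1 UMI in KI and 2.46 in WT, compared with 1.32 and 1.14 in fibroblast-like cells. Col1a1 was among the 2 members past the limit there, with 477 CPM in KI and 335 CPM in WT (0.51, 0.23 to 0.79). It was no longer past the limit when centred on the class median (0.41), with doublets kept (0.42), with the mean of per-cell CPM (0.49), at resolution 0.5 (0.29) or when thinned (0.28). Col1a2 had 609 CPM and 513 CPM. In pericyte-like cells the fibrillar levels differed little. Col1a1 stood at 661 CPM in KI and 612 CPM in WT, Col1a2 at 782 CPM and 689 CPM, and Col3a1 at 570 CPM and 517 CPM, with intervals that reach 0 for Col1a1 and Col3a1. In the endothelial-like and both alveolar classes, Col1a1, Col1a2 and Col3a1 stayed at levels that free RNA can reach.

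Type V collagen is a minor fibrillar type that starts fibrils and sets their width. Its chains were spread over all mesenchymal classes. In fibroblast-like cells Col5a1 had 119.8 CPM in KI and 123 CPM in WT (-0.04, -0.22 to 0.14), so no difference was seen beyond counting error. Col5a2, a neighbour of Col3a1 on chromosome 1, had 259 CPM in KI and 216 CPM in WT (0.26, 0.13 to 0.39). The rarer Col5a3 chain had 18.1 CPM in KI and 10.2 CPM in WT (0.83, 0.26 to 1.41), from 75 and 42 UMIs. Of the type V genes it was the rarest and the only one past the limit in this class. In pericyte-like cells Col5a1 had 104 CPM in KI and 124 CPM in WT, Col5a2 229 CPM and 177 CPM (0.37, 0.08 to 0.66), and Col5a3, at its highest level of any class, 24.7 CPM and 33.5 CPM (-0.44, -1.23 to 0.35). Smooth muscle-like cells had 85.0 CPM of Col5a1 in KI and 72.2 CPM in WT, and 168 CPM and 126 CPM of Col5a2. In alveolar type 1-like cells Col5a2 was the only measurable type V gene, at 51.8 CPM in KI and 44.8 CPM in WT. Endothelial-like cells had 289 KI and 278 WT UMIs of Col5a2, in 220 and 230 cells. Of these UMIs, 52 in KI and 45 in WT lay in arterial-like cluster 11, with 157 KI and 215 WT cells. Aerocyte-like cluster 1, with 1071 KI and 1378 WT cells, held 7 and 5. Col27a1, a fibrillar chain best known from cartilage, went the other way in fibroblast-like cells, with 30.5 CPM in KI and 44.0 CPM in WT (-0.53, -0.87 to -0.19). It was also lower in KI pericyte-like cells, at 33.2 CPM and 50.2 CPM, with an interval that just includes 0 (-0.60, -1.25 to 0.05), and higher in smooth muscle-like cells on 18 KI and 8 WT UMIs (0.77, -0.51 to 2.18).

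**Figure D3:**
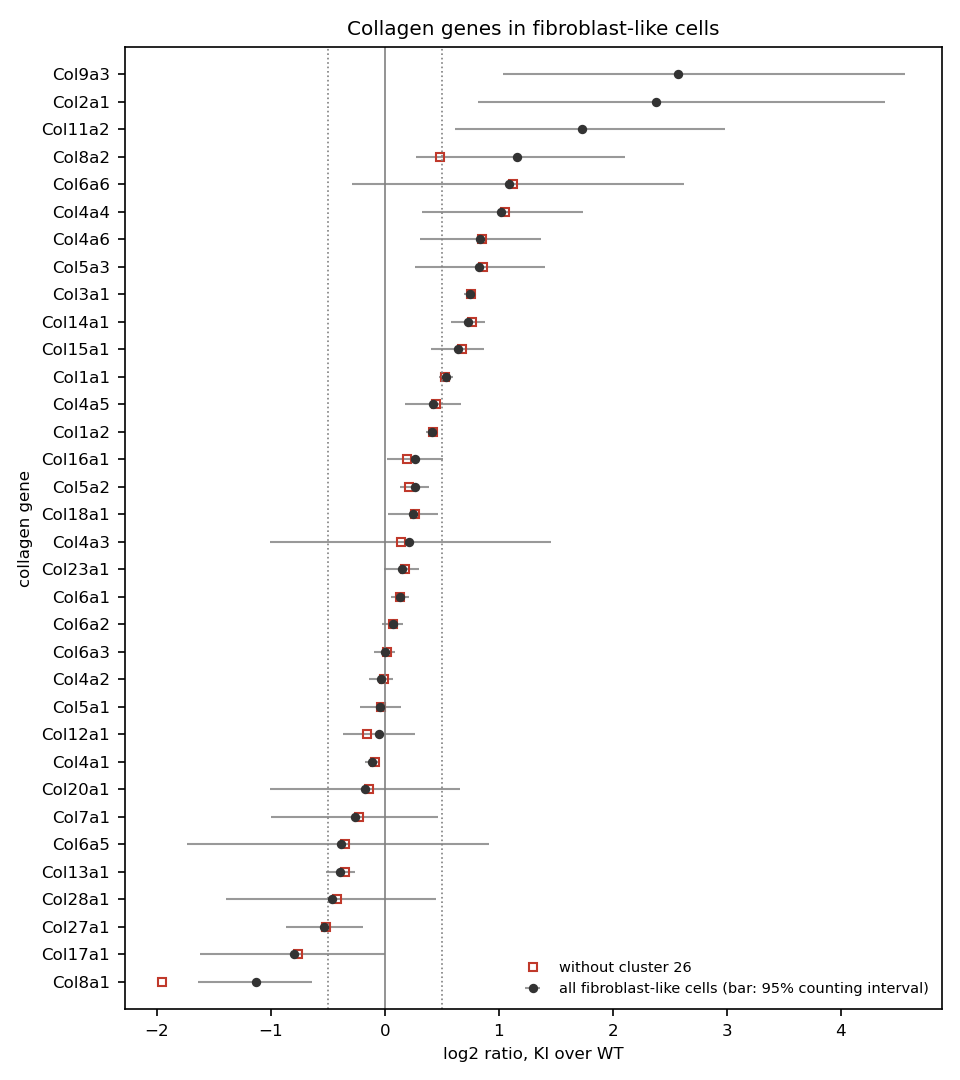
Log2 ratio of KI over WT (x axis) for 34 collagen genes in fibroblast-like cells, ordered by ratio; filled points take all cells, with 95% counting intervals, open squares leave out cluster 26, and dotted lines mark 0.5 either way. Col3a1 at 0.75, Col14a1 at 0.73, Col15a1 at 0.64 and Col1a1 at 0.54 lie past the limit with narrow intervals, those of Col15a1 and Col1a1 reaching just under it, and Col9a2 and Col11a1, with 0 UMIs in WT, are not drawn.

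Fibroblast-like cells fell into 5 clusters, and the difference in fibrillar message differed among them. Cluster 6 matched adventitial fibroblast markers, with Pi16 and Clec3b in front, and held 395 KI and 371 WT cells. There Col3a1 stood at 2621 CPM in KI and 1669 CPM in WT (0.65, 0.59 to 0.72). Cluster 2 matched alveolar fibroblast markers, with 506 KI and 648 WT cells, and had 1042 CPM of Col3a1 in KI and 702 CPM in WT (0.57, 0.46 to 0.68). In cluster 10, led by Slc39a14, Cxcl14 and Serpina3n, with 113 KI and 259 WT cells, Col3a1 had 594 CPM in KI and 483 CPM in WT (0.30, 0.06 to 0.54). Cluster 15, a shallow cluster with a median of 1000 UMIs in KI and 907.5 in WT, had 536 CPM and 519 CPM (0.05, -0.43 to 0.53). The class ratios therefore held a part that came from the mix of clusters: with each cluster given the same weight in both libraries, the ratio was 0.61 for Col3a1, 0.38 for Col1a1, 0.48 for Col14a1 and 0.37 for Col15a1. Only Col3a1 of these 4 stayed past 0.5. Haemoglobin genes made up 0.692% of fibroblast-like UMIs in KI and 0.000438% in WT, with 10 KI cells and 0 WT cells above 10 such UMIs, and the 6 erythroid markers summed to 6954 CPM in KI and 4.38 CPM in WT, all 6 present in KI and 4 in WT. Endothelial-like cells had 0.0260% haemoglobin UMIs in KI and 0.00359% in WT, and pericyte-like cells 0.102% and 0.000446%. Their part in the collagen ratios was not tested.

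In fibroblast-like cells of KI, a small cluster carried most UMIs of the type II, IX and XI chains Col2a1, Col9a2, Col9a3, Col11a1 and Col11a2. Cluster 26 held 31 KI cells and 1 WT cell, took its fibroblast-like name from 8 detected markers, and was led by Myoc, Cytl1, Chad, Prg4, Wif1 and Comp. Chad and Comp encode matrix proteins known from cartilage and tendon, and Prg4 encodes the joint lubricant lubricin. Acan, the large proteoglycan of cartilage, had 34 UMIs in 7 of these KI cells, Sox9 27 UMIs in 11 and Hapln1 48 UMIs in 13, and Matn3 had 0 UMIs. Col11a1, a chain of cartilage fibrils, had 29 UMIs in 9 KI cells of the cluster, or 270.1 CPM, and 0 UMIs in all other fibroblast-like cells of both libraries. Col2a1, the main cartilage chain, had 21 UMIs in KI fibroblast-like cells, all within 3 cells of the cluster and 18 of them in 1 cell, and 4 UMIs in WT. Col9a2, a FACIT chain that coats cartilage fibrils, had 25 UMIs in KI and 0 in WT, 24 of them in 4 cells of the cluster. Set against a floor of 3 counts in WT, the observed KI counts gave 8.29-fold for Col9a2 and 9.61-fold for Col11a1. These values leave out the counting error of the KI counts, and 1 cell held 16 of the 25 Col9a2 UMIs.

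The related chains followed. Col11a2, the partner of Col11a1, had 30 UMIs in KI and 9 in WT (1.73, 0.62 to 2.99), and 25 of the KI UMIs lay in 4 cells of cluster 26. Col9a3 had 24 UMIs in KI and 4 in WT (2.58, 1.04 to 4.56). None of Col2a1, Col9a2, Col9a3, Col11a1 and Col11a2 reached the minimum of 20 UMIs once that cluster was left out, so the higher KI values of these 5 genes in the class describe those few cells. Over all kept cells of every class, Col11a2 had 64 UMIs in KI and 43 in WT, Col9a3 46 and 24, and Col2a1 27 and 19, so these 3 genes were also seen outside the cluster. The cluster was also rich in common chains, with 1667 CPM of Col1a1, 1202 CPM of Col1a2, 1192 CPM of Col3a1, 587 CPM of Col5a2 and 214 CPM of Col8a1 in its KI cells. Ratios of the abundant genes barely moved without it: Col3a1 stood at 0.76, Col1a1 at 0.53, Col14a1 at 0.77 and Col15a1 at 0.68. Col8a2 stood at 0.49 without it, just inside the limit, and Col8a1 moved to -1.96, from 28 KI and 111 WT UMIs.

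Type IV collagen has a common network, made from Col4a1 and Col4a2 chains, and a specialised network of Col4a3, Col4a4 and Col4a5 chains, known from kidney and lung barriers and affected in Alport syndrome. The common chains were present in all 6 classes and highest in pericyte-like cells. Col4a1 stood there at 2896 CPM in KI and 2877 CPM in WT (0.01, -0.06 to 0.08). Col4a2 had 1756 CPM in KI and 1752 CPM in WT (0.00, -0.09 to 0.10). Both levels were alike within counting error, and both chains had a UMI together in 91.6% of KI and 89.4% of WT pericyte-like cells.

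Endothelial-like cells had more of both common chains in KI, by a small amount set against very deep counts. Col4a1 had 1497 CPM in KI and 1260.3 CPM in WT (0.25, 0.22 to 0.28), and Col4a2 848 CPM and 719 CPM (0.24, 0.20 to 0.27). Neither passed the limit of 0.5. The difference had the same sign in all 8 endothelial-like clusters. Col4a1 was highest in cluster 3, which matched markers of aerocytes, the large thin capillary cells of the alveolus, with 2119 CPM in KI and 1609 CPM in WT (0.40). General capillary-like cluster 0 had 1519.5 CPM in KI and 1245 CPM in WT, aerocyte-like cluster 1 1395 CPM and 1214 CPM, arterial-like cluster 11 1175.5 CPM and 999.96 CPM, and venous-like cluster 12 1422 CPM and 1111 CPM. The ratio of Col4a1 to Col4a2 UMIs in endothelial-like cells was 1.77 in KI (1.73 to 1.80) and 1.75 in WT (1.71 to 1.79). In pericyte-like cells it was 1.65 in KI and 1.64 in WT, so the pair kept nearly the same proportion in both libraries. Fibroblast-like cells had relatively more Col4a1, with a ratio of 2.825 in KI and 2.996 in WT, and alveolar type 1-like cells relatively more Col4a2, with 1.28 in KI and 1.14 in WT. These are ratios of 3′ tags and not of chains.

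In fibroblast-like cells Col4a1 was slightly lower in KI, with 998 CPM against 1081 CPM in WT (-0.12, -0.18 to -0.05), and Col4a2 had 353 CPM in KI and 361 CPM in WT (-0.03, -0.14 to 0.07). The clusters disagreed on Col4a1: cluster 10, where it was highest, had 2022 CPM in KI and 1659 CPM in WT (0.29, 0.16 to 0.41), and cluster 2 had 1033 CPM and 949.8 CPM (0.12, 0.01 to 0.23), while adventitial-like cluster 6 had 842 CPM and 983 CPM (-0.22, -0.32 to -0.13). Cluster 10 also made up 113 of 1176 KI and 259 of 1399 WT cells of the class. Smooth muscle-like cells had 763 CPM of Col4a1 in KI and 896 CPM in WT (-0.23, -0.42 to -0.04) and 343 CPM and 329 CPM of Col4a2.

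**Figure D4:**
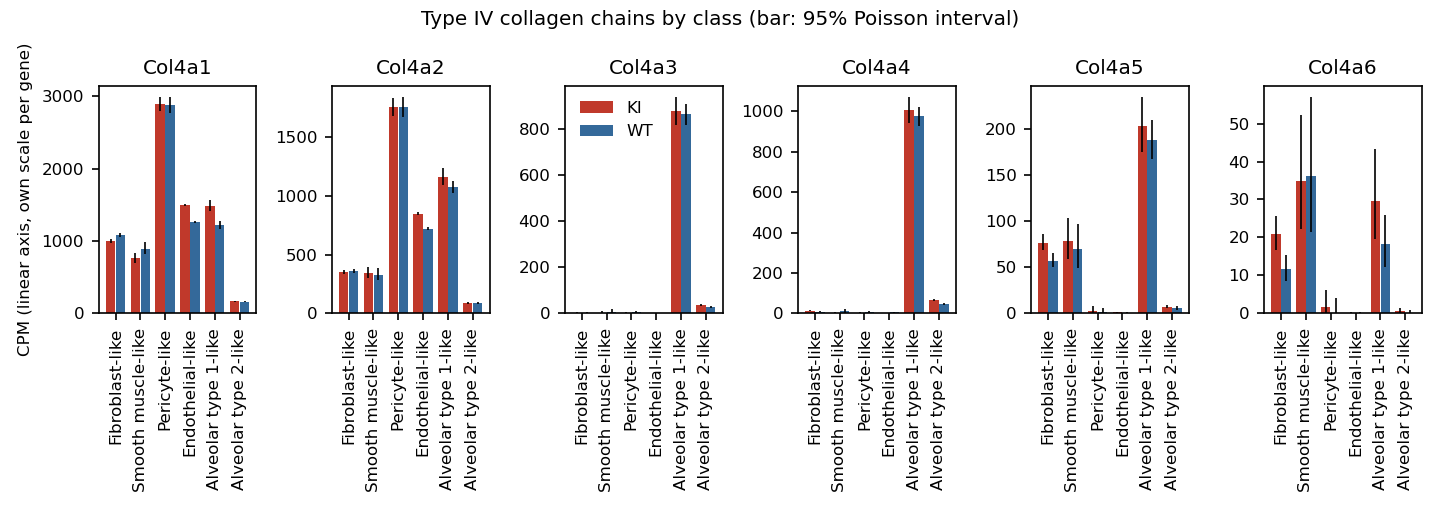
Levels of the 6 type IV genes (CPM, linear y axis with its own scale for each gene) in the 6 compared classes, KI bars left of WT bars, with 95% Poisson intervals. Col4a1 and Col4a2 are highest in pericyte-like cells, and Col4a3, Col4a4 and Col4a5 in alveolar type 1-like cells, where Col4a4 stands at 1005 CPM in KI and 976 CPM in WT.

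The specialised network was a feature of alveolar type 1-like cells, the flat cells that cover most of the alveolar surface. Col4a4 stood at 1005 CPM in KI and 976 CPM in WT (0.04, -0.08 to 0.16). Col4a3 had 876 CPM in KI and 863 CPM in WT (0.02, -0.10 to 0.15), and Col4a5 had 204 CPM and 188 CPM (0.12, -0.15 to 0.38). The intervals of all 3 include 0 over the whole class. Together they gave 42.0% of the collagen UMIs of the class in KI and 45.1% in WT. Col4a3 and Col4a4 had a UMI in the same cell in 53.5% of KI and 62.4% of WT alveolar type 1-like cells, whose median depths were 2144 and 2995 UMIs, and in 51.0% and 56.6% of cells thinned to 1500 UMIs. In endothelial-like cells, at 4111.5 and 3564 UMIs, the share was 0.143% in KI and 0.0463% in WT. The common chains were present beside them. Col4a1 had 1487 CPM in KI and 1226 CPM in WT (0.28, 0.18 to 0.38), and Col4a2 1163 CPM and 1077 CPM (0.11, -0.00 to 0.22).

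Depth was uneven within this class. Cluster 17, with a median of 961 UMIs in 103 KI cells and 826 UMIs in 127 WT cells, made up a larger part of the KI class than of the WT class, and its Col4a4 level was 99.3 CPM in KI and 207 CPM in WT. In the deeper cluster 8, with 142 KI and 298 WT cells, Col4a4 had 1172 CPM in KI and 1044 CPM in WT (0.17, 0.05 to 0.29), an interval clear of 0, Col4a3 984 CPM and 912 CPM (0.11, -0.02 to 0.24), and Col4a1 1664 CPM and 1298 CPM (0.36). Alveolar type 2-like cells, the surfactant makers and progenitors of type 1 cells, had 66.7 CPM of Col4a4 in KI and 46.97 CPM in WT (0.51, 0.29 to 0.73). That level lay more than 20 times below alveolar type 1-like cells in WT but not in KI, and that of Col4a3 did in both libraries. By that limit free RNA can reach the Col4a3 levels and the WT level of Col4a4. The Col4a4 counts were 455 of 6820078 UMIs in KI and 270 of 5748804 in WT. In endothelial-like cells they were 47 of 15986180 and 79 of 16864128. The part of free RNA in these levels was not tested. The common chains in alveolar type 2-like cells had 165 CPM (Col4a1) in KI and 161 CPM in WT, and 88.7 CPM (Col4a2) in KI and 91.0 CPM in WT.

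Col4a6 and Col4a5 share a network found around smooth muscle and some epithelia. Col4a6 was low everywhere and highest in smooth muscle-like cells, with 34.9 CPM in KI and 36.1 CPM in WT (-0.05, -1.002 to 0.927). In fibroblast-like cells it had 20.8 CPM in KI and 11.7 CPM in WT (0.83, 0.31 to 1.37), and 75 of 86 KI and 38 of 48 WT UMIs lay in adventitial-like cluster 6. Alveolar type 1-like cells had 29.7 CPM in KI and 18.2 CPM in WT, an interval that includes 0 (0.71, -0.10 to 1.51). Its neighbour Col4a5 had 76.9 CPM in KI and 57.4 CPM in WT in fibroblast-like cells (0.42, 0.17 to 0.67) and 78.9 CPM and 70.2 CPM in smooth muscle-like cells.

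Type VIII collagen is a short-chain network collagen of vessel walls. Col8a1 was at home in pericyte-like cells, with 269 CPM in KI and 332 CPM in WT (-0.30, -0.53 to -0.07), and in smooth muscle-like cells, with 196 CPM in KI and 277 CPM in WT (-0.50, -0.86 to -0.14), just inside the limit. Both classes had less of it in KI. In fibroblast-like cells it had 12.3 CPM in KI and 27.0 CPM in WT (-1.13, -1.64 to -0.64), but the KI level was one free RNA can reach and 2 WT cells held 46 of the 111 WT UMIs. Averaging over cells in place of summing UMIs gave 0.15. Its partner Col8a2 was scarce, with 36 UMIs in KI and 16 in WT fibroblast-like cells (1.16, 0.28 to 2.11), of which 14 KI UMIs lay in cluster 26, and it stood highest in airway epithelial-like cells, at 16.2 CPM in KI and 21.9 CPM in WT from 11 and 23 UMIs.

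Type VI collagen forms beaded microfilaments that link cells to the surrounding matrix. Its 3 main chains were abundant and nearly equal between libraries in fibroblast-like cells. Col6a1 had 695 CPM in KI and 634 CPM in WT (0.13, 0.06 to 0.21). Col6a3 had 472 CPM in both libraries (0.00, -0.09 to 0.09), and Col6a2 had 455 CPM in KI and 434 CPM in WT (0.07, -0.03 to 0.16). The type VI share of the class's collagen UMIs was thus lower in KI, at 17.3% against 20.2% in WT, beside the higher fibrillar share. Pericyte-like cells had 275 CPM of Col6a1 in KI and 359 CPM in WT (-0.39, -0.61 to -0.16), 282 CPM and 300 CPM of Col6a2, and 49.4 CPM and 49.1 CPM of Col6a3. Smooth muscle-like cells had 275 CPM of Col6a1 in KI and 271 CPM in WT, and 193 CPM and 178 CPM of Col6a3. Col6a2 was the 1 member lower there past the limit, with 126 CPM in KI and 189 CPM in WT (-0.58, -1.03 to -0.14), seen in 33.8% of KI and 52.2% of WT cells at median depths of 3912 and 3766 UMIs (16.7% and 27.9% when thinned), compared with 0.599% and 0.695% of endothelial-like cells.

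Alveolar type 2-like cells held message of Col6a1 and Col6a2 with almost none of Col6a3. Col6a1 had 159 CPM in KI and 125 CPM in WT (0.35, 0.22 to 0.49), with a UMI in 72.8% of KI and 66.4% of WT cells at median depths of 14486 and 12953.5 UMIs, and in 19.2% and 17.0% of cells thinned to 1500 UMIs. In endothelial-like cells a UMI of Col6a1 was seen in 1.63% of KI and 1.09% of WT cells, or 0.629% and 0.443% when thinned. Col6a2 had 42.1 CPM in KI and 23.3 CPM in WT (0.85, 0.55 to 1.16), the largest difference of this class among members above 20 CPM. Col6a3 was nearly absent, with 0.0101 UMIs per Col6a1 UMI in KI and 0.00697 in WT, compared with 0.679 and 0.744 in fibroblast-like cells. Marker genes of fibroblasts summed to 509 CPM in KI and 484 CPM in WT alveolar type 2-like cells, with 12 of 12 seen in KI and 11 of 12 in WT, and in endothelial-like cells to 154 CPM and 131 CPM. The fibroblast-like class itself had 34669 CPM of these markers in KI and 34636 CPM in WT. The part of such RNA in the Col6a1 and Col6a2 levels was not tested. The alternative chains Col6a5 and Col6a6 were rare, with 10 KI and 13 WT UMIs of Col6a5 in fibroblast-like cells (-0.39, -1.74 to 0.92) and 15 and 7 UMIs of Col6a6 (1.09, -0.29 to 2.63).

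FACIT collagens attach to fibril surfaces. Col14a1, the chain of type XIV collagen, which regulates fibril growth, was higher in KI fibroblast-like cells, with 238 CPM in KI and 143 CPM in WT (0.73, 0.59 to 0.88). A UMI of it was seen in 25.1% of KI and 16.2% of WT cells (17.2% and 12.8% when thinned), compared with 0.599% and 0.394% of endothelial-like cells. Of its UMIs, 941 of 985 in KI and 550 of 589 in WT lay in adventitial-like cluster 6, where it had 458 CPM in KI and 325 CPM in WT (0.49, 0.34 to 0.65), while cluster 2 had 18.6 CPM and 13.6 CPM. A single KI cell held 62 of the 985 KI UMIs. Smooth muscle-like cells had 124 CPM in KI and 110.3 CPM in WT (0.17, -0.34 to 0.69).

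The other FACIT chains did not differ beyond counting error in most classes. Col12a1, which is known from tendon and loaded tissue, was expressed from epithelium to endothelium and led in alveolar type 1-like cells, with 62.8 CPM in KI and 56.4 CPM in WT. It had 40.6 CPM in KI and 42.1 CPM in WT fibroblast-like cells, 38.0 CPM and 37.4 CPM in alveolar type 2-like cells, and 30.4 CPM and 32.6 CPM in endothelial-like cells. Among endothelial-like clusters it marked the aerocytes: cluster 3 had 88.2 CPM in KI and 92.8 CPM in WT and cluster 1 had 61.9 CPM and 66.7 CPM, while general capillary-like cluster 0 had 7.98 CPM and 8.98 CPM. Both libraries kept this order, and the difference between cluster 1 and cluster 0 was far wider than that between libraries. Col16a1 was highest in pericyte-like cells, with 94.5 CPM in KI and 107 CPM in WT, and had 73.1 CPM and 60.8 CPM in fibroblast-like cells (0.26, 0.02 to 0.51) and 60.7 CPM and 58.2 CPM in smooth muscle-like cells. Col20a1 had 25 KI and 28 WT UMIs in fibroblast-like cells, and in alveolar type 2-like cells 11 and 14 UMIs (-0.59, -1.88 to 0.65). Col7a1, the chain of the anchoring fibrils that tie epithelium to its base, appeared in pericyte-like cells, with 53.7 CPM in KI and 58.0 CPM in WT (-0.11, -0.67 to 0.44).

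Both multiplexins were higher in KI in endothelial-like and in fibroblast-like cells, with intervals clear of 0. Col18a1, whose product yields the fragment endostatin, had 43.9 CPM in KI and 30.5 CPM in WT endothelial-like cells (0.52, 0.36 to 0.69). Centred on the class median it stood at 0.47, and with the mean of per-cell CPM at 0.48, both inside the limit. It was seen in 11.4% of KI and 7.66% of WT cells, or 5.88% and 3.96% when thinned, at median depths of 4111.5 and 3564 UMIs. In alveolar type 2-like cells, where its level is one free RNA can reach, the shares were 5.73% in KI and 7.18% in WT at 14486 and 12953.5 UMIs, or 1.28% and 0.699% when thinned. Aerocyte-like clusters 1 and 3 carried most of it, with 75.6 CPM in KI and 54.9 CPM in WT in cluster 1 and 84.1 CPM and 67.0 CPM in cluster 3, and venous-like cluster 12 had 69.9 CPM and 67.0 CPM. The gene was highest in smooth muscle-like cells, at 355 CPM in KI and 365 CPM in WT (-0.04, -0.33 to 0.25). In fibroblast-like cells it had 92.7 CPM in KI and 78.1 CPM in WT (0.25, 0.03 to 0.47). In pericyte-like cells it had 22 KI and 7 WT UMIs (1.26, -0.02 to 2.73), and the WT level was one free RNA can reach.

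Col15a1, the related chain of type XV, stood at 95.1 CPM in KI and 61.1 CPM in WT in fibroblast-like cells (0.64, 0.41 to 0.87). Of its UMIs there, 388 of 393 in KI and 245 of 251 in WT came from adventitial-like cluster 6, where it had 189 CPM in KI and 145 CPM in WT (0.38, 0.15 to 0.62). In the endothelium it marked larger vessels rather than aerocytes. Venous-like cluster 12 had 80.0 CPM in KI and 73.5 CPM in WT, arterial-like cluster 11 39.7 CPM and 48.2 CPM, general capillary-like cluster 0 13.2 CPM and 6.90 CPM (0.93), and aerocyte-like cluster 1 0.918 CPM and 0.171 CPM. Over the whole class it had 14.8 CPM in KI and 10.6 CPM in WT (0.48, 0.19 to 0.76). Venous-like cluster 12 held 1187363 of 15986180 KI and 925294 of 16864128 WT UMIs of the class. The part of the cluster mix in the Col15a1 ratio of endothelial-like cells was not tested.

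**Figure D5:**
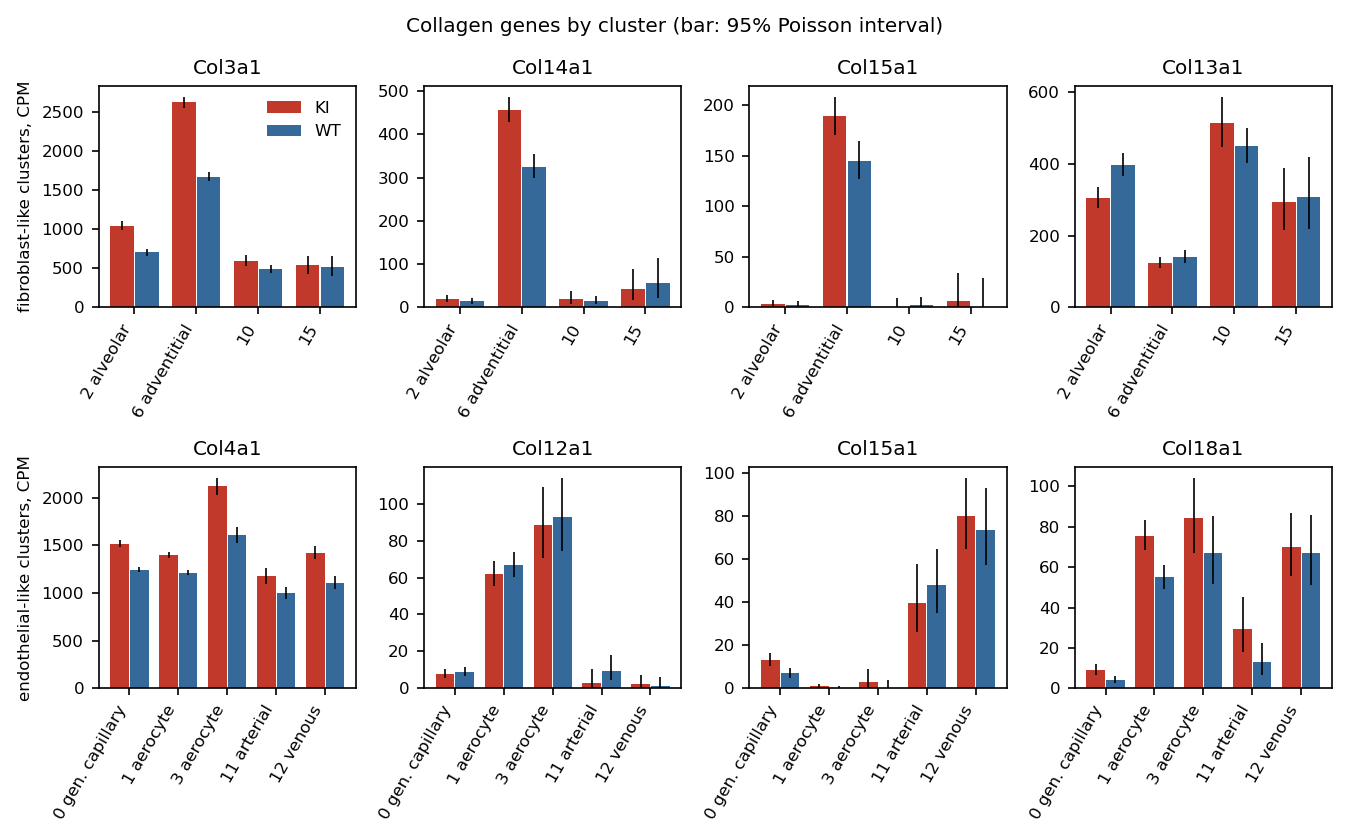
Levels (CPM, linear y axes) of Col3a1, Col14a1, Col15a1 and Col13a1 in 4 fibroblast-like clusters (top) and of Col4a1, Col12a1, Col15a1 and Col18a1 in 5 of the 8 endothelial-like clusters (bottom), KI bars left of WT bars, with 95% Poisson intervals. Col14a1 and Col15a1 are nearly confined to adventitial-like cluster 6, Col12a1 to aerocyte-like clusters 1 and 3, and Col4a1 is higher in KI in all 5 endothelial-like clusters drawn.

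Transmembrane collagens were led by Col13a1, a chain placed at junctions of cell and matrix that is also known as a marker of alveolar fibroblasts. It was lower in KI fibroblast-like cells, with 227 CPM against 297 CPM in WT (-0.39, -0.51 to -0.27), inside the limit of 0.5. Of the 4 larger clusters, only alveolar-like cluster 2 had an interval clear of 0, with 304 CPM in KI and 396 CPM in WT (-0.38, -0.56 to -0.20). In cluster 10, where its level was highest, it had 513 CPM in KI and 449 CPM in WT (0.19, -0.06 to 0.45), and that cluster was a smaller part of the KI class. Col23a1 had 172 CPM in KI and 155 CPM in WT fibroblast-like cells (0.15, -0.01 to 0.30) and 18.0 CPM and 17.9 CPM in alveolar type 2-like cells. Col17a1, a component of epithelial hemidesmosomes, had 22 KI and 38 WT UMIs in fibroblast-like cells (-0.80, -1.62 to -0.00), each in a different cell. Col25a1 had 39 UMIs in all KI cells and 19 in all WT cells, and Col28a1, a relative of type VI, had 19 KI and 26 WT UMIs in fibroblast-like cells.

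The members under 20 UMIs in every compared class numbered 7. Over all kept cells, Col6a4 had 13 UMIs in KI and 6 in WT, Col9a1 8 and 0, Col10a1 3 and 2, Col19a1 1 and 3, Col22a1 16 and 9, Col24a1 12 and 8, and Col26a1 8 and 4. A floor of 3 counts in a library, the limit a count of 0 allows, corresponds to 0.0904 CPM in KI and 0.0908 CPM in WT. Col9a1 was the only one of the 7 whose interval excluded 0, with a lower bound of 0.76 on the log2 scale. For the other 6 a difference was not detectable at this depth. Of the 8 KI UMIs of Col9a1, 7 lay in fibroblast-like cells, in 0.255% of the KI cells of that class. The interval covers counting error only and takes no account of UMIs that share a cell, so it describes those few cells. Whether they belong to the small cluster with most Col9a2 and Col9a3 UMIs was not tested.

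Newly made chains need enzymes and chaperones before they are secreted, and a list of 61 such genes, with receptors and degrading enzymes, was read beside the members. In fibroblast-like cells 7 of 54 measured list genes were higher in KI past the limit and 2 were lower, a smaller share than the background of 17.5% higher. Their median log2 ratio was 0.05, beside 0.25 for the collagen members. Of the genes at 50 CPM or more, the highest ratio was that of Ctsk, the collagen-degrading cathepsin K, with 67.7 CPM in KI and 44.3 CPM in WT (0.61, 0.34 to 0.89), followed by the lysyl hydroxylase Plod1 (0.38), the membrane collagenase Mmp14 (0.32) and the propeptide-cutting protease Bmp1 (0.30). Lowest were Plod3 (-0.46), Lox, the cross-linking lysyl oxidase, with 809 CPM in KI and 1042 CPM in WT (-0.37, -0.43 to -0.30), Loxl2 (-0.31) and P3h4 (-0.27). Col1a1, Col1a2 and Col3a1 thus stood on the other side of 0 from Lox, while the fibrillar genes Col27a1 and Col5a1 stood on the same side as Lox. These are ratios of the whole class. Lox was among the leading genes of alveolar-like cluster 2, which held 1394453 of 4133102 KI and 1541358 of 4110015 WT UMIs of the class. The part of the cluster mix in the Lox ratio was not tested.

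In endothelial-like cells 7 of 52 list genes were higher and 1 was lower, near the background of 12.4% higher and below that of 6.39% lower. Serpinh1, the collagen chaperone HSP47, had 330.04 CPM in KI and 449.8 CPM in WT (-0.45, -0.50 to -0.40), and the prolyl hydroxylase subunit P4hb (-0.25), Plod1 (-0.16) and the folding enzyme Ppib (-0.15) were the next lowest. Fkbp14, a collagen-folding isomerase, had 140.1 CPM in KI and 99.0 CPM in WT (0.50, 0.41 to 0.59), P4ha2 stood at 0.39, and Sparc, a matrix protein that binds collagen, had 1037 CPM and 865 CPM (0.26, 0.23 to 0.29), with Plod2 at 0.25. The chaperone was thus lower in the class in which Col4a1 and Col4a2 were higher. Whether these differences lay in the same cells was not tested.

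Pericyte-like cells had 2 of 43 list genes higher and 6 lower, where 13.7% of all genes were higher and 11% lower. Timp3, an inhibitor of metalloproteinases bound to the matrix, had 1402 CPM in KI and 2026 CPM in WT (-0.53, -0.63 to -0.43), and the collagen receptor Ddr2 144 CPM and 221 CPM (-0.62, -0.92 to -0.32), with the secretion factors Mia3 (-0.42) and Mia2 (-0.37) next. Colgalt1 (0.49), Loxl2 (0.34), P3h3 (0.31) and Bmp1 (0.30) were highest. In smooth muscle-like cells 9 of 43 were higher and 0 lower. Mmp2, a gelatinase, had 95.6 CPM in KI and 54.1 CPM in WT (0.82, 0.15 to 1.53), above Fkbp10 (0.57), Mmp14 (0.52) and Bmp1 (0.37), while Adamts2 (-0.48), Ddr2 (-0.45), P3h3 (-0.43) and Loxl1 (-0.33) were lowest. In that class 21.7% of all genes were higher past the limit, a share close to 9 of 43.

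Alveolar type 1-like cells had 6 of 34 list genes higher and 2 lower, close to the background of 17.3% higher and not above that of 11% lower. Of the 12 measured genes for prolyl and lysyl modification, 2 were higher and 2 lower past the limit. Plod2, inside it, had 185 CPM in KI and 246 CPM in WT (-0.41, -0.68 to -0.15), P4ha2 190.5 CPM and 248 CPM (-0.38, -0.65 to -0.12) and P4ha1 111 CPM and 148 CPM (-0.41, -0.76 to -0.07), beside Lox (-0.46). Plod1 (0.69, -0.38 to 1.75) and Crtap (0.66, -0.28 to 1.59) were the 2 higher, on 16 KI and 18 WT UMIs of Plod1 and 20 KI and 23 WT UMIs of Crtap. Of the genes at 50 CPM or more, P4hb (0.39), Colgalt1 (0.33), Pcolce (0.27) and Timp3 (0.21) were highest. Alveolar type 2-like cells had 2 of 38 higher and 4 lower, where 14.8% of all genes were higher and 5.76% lower. Serpinh1 had 157 CPM in KI and 127 CPM in WT (0.30, 0.17 to 0.44), with Mia2 (0.05), Sparc (0.04) and Bmp1 (0.03) next, and Timp3 had 316 CPM and 393 CPM (-0.31, -0.40 to -0.23), with Timp2 (-0.30), P4ha1 (-0.17) and Ppib (-0.13) following. Sparc was there at a level free RNA can reach in both libraries, and Timp2 in KI only.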

How the data were processed

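Both libraries were 10x Chromium V3 3′ single-cell libraries of sorted lung cells. The deposited values are raw UMI counts per gene and barcode, not normalised, per the file headers. Seurat 2.3.4, R 3.5.3, Cell Ranger 2.0 and mm10 appear, without a role or order, in the submitters' processing notes, while the headers of the matrices name software version 3.0.2. No correction for free RNA was applied here.

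Barcodes with at least 200 genes and at most 10% mitochondrial UMIs were kept: 7161 of 9120 in KI and 8417 of 10473 in WT. Doublet scores (Scrublet within scanpy 1.11.5) found almost none at the automatic threshold, 0 in KI and 1 in WT, so the highest scores at an expected rate of 0.8% per 1000 barcodes were removed, 522 in KI and 705 in WT. Cells were clustered on up to 2000 variable genes per library without collagen genes, with 50 components, 10 neighbours and Leiden resolution 1 (leidenalg 0.10.2). Clusters were named from fixed marker lists. The number of components, the scoring rule and the exclusion of clusters led by markers of another class were set after the clusters were seen. The submitters' own cell names were not used here.

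UMIs were summed per class and library and given as CPM with exact Poisson intervals. Ratios carry exact conditional binomial intervals and shares of cells Clopper-Pearson intervals, all 95% and for counting error only (Python 3.11.15, numpy 2.4.6, scipy 1.17.1, pandas 2.3.3). With 1 library per group no test was possible and no p-value is given, and the minimum of 20 UMIs and the limit of 0.5 on the log2 scale describe size only. The calculations were tested on simulated data.

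Per class, members at 50 CPM or more and members past 0.5 were named, as were the 4 highest and 4 lowest genes at 50 CPM or more of a list of 61 collagen pathway genes. A level more than 20 times below another class of the same library was called one that free RNA can reach. Thinned shares draw 1500 UMIs per cell and leave out shallower cells. The members and lists were chosen with earlier results of these data known. Gene positions are from GENCODE M21. The sort gate was not stated, so class sizes are not compared.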

Additional observations from a re-analysis of the deposited data

Results flagged for a closer look

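Col6a2, a chain of type VI collagen, had ratios of opposite sign in different classes. Its log2 ratio of KI over WT was 0.85 in alveolar type 2-like cells, with 42.1 CPM in KI and 23.3 CPM in WT, and -0.58 in smooth muscle-like cells, with 126 CPM in KI and 189 CPM in WT. The difference between these classes was not tested, since each group holds 1 library.

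Clusters left without a name by the marker lists also carried collagen message, outside the comparisons given above. In these cells 0.342% of UMIs were collagen in KI and 0.313% in WT, and they held 7.32% of all collagen UMIs in KI and 5.48% in WT.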

How the results depend on the processing

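The settings compared sums of UMIs with other ways of choosing or weighting the cells. The log2 ratio of the collagen share kept its sign in every compared class under every setting that gave a value: it ranged from 0.22 to 0.36 in fibroblast-like, 0.24 to 0.29 in endothelial-like, 0.04 to 0.11 in smooth muscle-like, 0.00 to 0.06 in pericyte-like, 0.03 to 0.26 in alveolar type 1-like and 0.08 to 0.30 in alveolar type 2-like cells. Its size moved in 13 cases and held in 32, while counts of members past the limit moved in 33 and held in 69, and counts of pathway genes moved in 26 and held in 76. The cause was not tested. The stricter cell filter gave no smooth muscle-like class of enough cells. Leaving out cluster 26 and leaving out clusters of low depth were chosen after seeing the data. No paired analysis was possible because each group holds 1 library.

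With ratios centred on the class median, members numbered 1 higher and 2 lower of 19 in smooth muscle-like cells. They were 2 of 27 lower in endothelial-like and 2 of 16 higher in alveolar type 2-like cells. Lower pathway genes were 4 of 54 in fibroblast-like, 5 of 43 in smooth muscle-like, 3 of 52 in endothelial-like and 4 of 34 in alveolar type 1-like cells. Of all genes so centred, 1159 of 7172 were higher and 1128 lower in smooth muscle-like cells, and 1367 of 11427 higher in alveolar type 2-like cells. Lower were 1243 of 11782 in fibroblast-like, 982 of 13081 in endothelial-like and 1118 of 8809 in alveolar type 1-like cells. With doublets kept, the share ratio was 0.0706 in alveolar type 1-like cells. Members numbered 1 higher and 2 lower of 19 in smooth muscle-like and 2 higher and 2 lower of 20 in pericyte-like cells. Lower pathway genes were 1 of 54 in fibroblast-like, 3 of 45 in smooth muscle-like, 2 of 52 in endothelial-like and 6 of 47 in alveolar type 1-like cells. Alveolar type 2-like cells had 4 higher and 2 lower of 46. Among all genes, 1763 of 7780 were higher and 789 lower in smooth muscle-like cells. Pericyte-like cells had 1175 of 9344 higher and 1142 lower, and alveolar type 2-like cells 1490 of 12188 and 670. Lower were 916 of 12020 in fibroblast-like, 877 of 13039 in endothelial-like and 1003 of 10600 in alveolar type 1-like cells.

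With the mean of per-cell CPM, the share ratio was 0.27 in fibroblast-like and 0.0266 in alveolar type 1-like cells. Members were 1 higher and 2 lower of 19 in smooth muscle-like and 2 of 17 lower in pericyte-like cells. Pathway genes were 4 of 43 lower in smooth muscle-like, 4 of 43 higher in pericyte-like, 5 of 52 lower in endothelial-like and 6 of 34 lower in alveolar type 1-like cells. The all-gene counts were 1629 higher and 1065 lower of 7172 in smooth muscle-like and 1343 and 1126 of 8826 in pericyte-like cells. Lower were 964 of 13081 in endothelial-like and 1605 of 8809 in alveolar type 1-like cells. Signs turned for Col8a1 in fibroblast-like cells (0.15) and for Col4a4 (0.18) and Col28a1 (-0.21) in endothelial-like cells. At resolution 0.5, members were 1 higher and 3 lower of 20 in smooth muscle-like and 2 of 26 lower in endothelial-like cells. Lower pathway genes were 5 of 47 in smooth muscle-like and 2 of 52 in endothelial-like cells. Over all genes, 1662 of 8197 were higher and 815 lower in smooth muscle-like cells, and 850 of 13001 lower in endothelial-like cells. With each cluster weighted alike in KI and WT, the share ratio was 0.22 in fibroblast-like and 0.22 in alveolar type 1-like cells. Members were 9 higher and 5 lower of 36 in fibroblast-like cells, where 1981 of all 11782 genes were higher and 881 lower. In endothelial-like cells 2 of 27 members were lower, beside 928 of 13081 genes. In alveolar type 1-like cells 1 of 34 pathway genes was lower, beside 917 of 8809 genes. Col11a2 turned sign in fibroblast-like cells (-0.85).

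With the stricter cell filter the share ratio was 0.36 in fibroblast-like, 0.0585 in pericyte-like, 0.26 in alveolar type 1-like and 0.30 in alveolar type 2-like cells. Members were 5 of 27 lower in fibroblast-like (all genes: 1038 of 10713) and 2 of 15 higher in pericyte-like cells (1083 of 6921). They were 16 of 25 higher in endothelial-like (1961 of 12882) and 1 of 8 higher in alveolar type 1-like cells (1515 of 7709). In alveolar type 2-like cells 2 were higher and 1 lower of 11 (1301 and 866 of 9846). Pathway genes were 2 of 51 lower in endothelial-like (661 of 12882) and 4 of 31 lower in alveolar type 1-like cells (978 of 7709). Alveolar type 2-like cells had 5 higher and 8 lower of 34. Col4a4 in endothelial-like cells stood at 0.49.

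Thinned to 1500 UMIs, the share ratio was 0.29 in endothelial-like, 0.0612 in alveolar type 1-like and 0.0757 in alveolar type 2-like cells. Members were 7 higher and 0 lower of 25 in fibroblast-like cells (all genes: 1821 and 978 of 9791). In pericyte-like cells 0 of 16 were higher (991 of 6647), and in endothelial-like cells 0 of 15 lower (715 of 11364). Alveolar type 1-like cells had 0 higher and 1 lower of 7 (883 and 911 of 5207), and alveolar type 2-like cells 1 and 0 of 8 (953 and 724 of 6185). Pathway genes were 1 higher and 3 lower of 24 in smooth muscle-like cells (569 and 452 of 3105). They were 4 of 46 lower in endothelial-like, 3 of 22 higher in alveolar type 1-like and 1 of 21 lower in alveolar type 2-like cells. Without cluster 26, 8 of 31 members were higher in fibroblast-like cells (all genes: 2031 of 11722). Without clusters of low depth, the share ratio in alveolar type 1-like cells was 0.21, and 1 of 8 members was higher there (all genes: 1544 of 8552). Depth limits the rare members most: those with 20 to 50 UMIs have log2 intervals wider than 0.5.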

Other observations

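A cluster led by Hhip, Ccl7 and Cyp2e1, with 55 KI and 63 WT cells, matched no class marker list well enough to be named and was rich in interstitial chains. Its leading genes Hhip, Cdh4 and Enpp2 are on the list for peribronchial fibroblasts, which was applied only to clusters already named fibroblast-like. The cluster fell short of the 100 cells per library set for the comparisons above, and no share over all genes is given for it. Col3a1 stood there at 1315 CPM in KI and 1083 CPM in WT, a log2 ratio of 0.28. Col6a3 had 231 CPM in KI and 395 CPM in WT (-0.78, -1.33 to -0.23), and Col5a1 had 123 CPM in KI and 267 CPM in WT (-1.12, -1.87 to -0.40). In fibroblast-like cells both of those genes were alike in KI and WT within counting error.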
